A study of Mus musculus with 5 samples.

Results

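Glycolysis and the hypoxia response were examined through 40 genes, of 21145 genes that could be named on the arrays, in mouse glioma and normal mouse brain. The genes are 16 glycolytic enzymes, 2 transporters, 4 pyruvate dehydrogenase kinases, 3 PFKFB regulators, 10 genes known to be induced by hypoxia, and 5 genes of oxygen sensing. They were found by matching the RefSeq accession of each probe to the gene's symbol, which gave 65 of the 55681 probes other than controls. Total RNA of 3 gliomas and 2 normal brain samples, all from mice at postnatal day 150, had been hybridised to single-colour Agilent SurePrint G3 mouse arrays, 1 array per sample. The gliomas came from a model built with MADM, a genetic method that makes and colour-marks scattered mutant cells in a living mouse. The labels give no mutated gene, no Cre driver, no strain and no brain region, and do not say whether the samples of a group came from separate animals. The p-values therefore measure the spread between these samples, which may in part be technical.

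Of all spots other than controls, those well above background made up 65.92% to 70.3% on the glioma arrays and 61.45% to 63.96% on the normal brain arrays, and precision is limited by how few arrays there are. All arrays lay on 1 slide, where each group lay in a row of its own, so position on the slide and group cannot be told apart. Glioma 3 carried female transcripts (Xist), and the other 4 samples male ones (Ddx3y, Eif2s3y). The gliomas were set apart by cell type markers. All 6 markers of oligodendrocyte progenitors and all 6 of dividing cells were higher in glioma, whereas all 10 neuronal, all 6 endothelial, all 4 red blood cell and 6 of 7 mature oligodendrocyte markers were lower (limma, adjusted p under 0.05). The oligodendrocyte count fell to 3 without normal brain 1 and to 2 without normal brain 2. Of the 7 microglia and macrophage markers 4 were higher, a count that lay between 0 and 5 under the alternative settings.

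Glycolysis splits glucose into pyruvate in the cytosol, and lactate dehydrogenase can turn pyruvate into lactate for export. Several of its steps are shared by isoenzymes from different genes, and brain cell types differ in which isoenzyme they use. When oxygen is low, prolyl hydroxylases no longer mark the alpha subunits of the hypoxia-inducible factors (HIF) for destruction, and the stabilised factors bind DNA at short motifs near genes for glycolytic enzymes, angiogenic factors and mitophagy receptors. HIF activity is thus set mainly at the level of protein, which these arrays do not measure. High glycolysis with lactate export is a known trait of many tumours, gliomas among them.

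HIF binds sequences with the core ACGTG or GCGTG, and the promoters of 7 genes are shown, those of all 4 genes called higher in glioma and of 3 genes with large falls, so that their matches can be set beside the direction of change. The sequences are from RefSeq (build GRCm38.p6), run 5′ to 3′ on the strand of the gene, and cover 250 bases before to 50 bases after the start of transcription. Capitals mark each match to ACGTG or GCGTG, on either strand, so that CACGT and CACGC are matches on the opposite strand. The sequence CACGTG, the E-box, holds a match on each strand. The genes called higher come before those called lower.
Hk2 (chr6:82774405-82774704, minus strand): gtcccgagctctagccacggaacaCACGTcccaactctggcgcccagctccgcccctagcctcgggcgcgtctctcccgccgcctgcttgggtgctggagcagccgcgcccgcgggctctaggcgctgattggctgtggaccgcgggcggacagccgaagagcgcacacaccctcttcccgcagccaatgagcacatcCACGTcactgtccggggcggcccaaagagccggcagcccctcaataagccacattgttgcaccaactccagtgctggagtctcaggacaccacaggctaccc
Hif1a (chr12:73907617-73907916, plus strand): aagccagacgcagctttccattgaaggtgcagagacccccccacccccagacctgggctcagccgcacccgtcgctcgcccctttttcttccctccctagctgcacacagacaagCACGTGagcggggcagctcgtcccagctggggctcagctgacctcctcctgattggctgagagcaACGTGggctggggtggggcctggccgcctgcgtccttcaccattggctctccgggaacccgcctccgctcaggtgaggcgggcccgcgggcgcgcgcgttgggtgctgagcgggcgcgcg
Kdm3a (chr6:71632868-71633167, minus strand): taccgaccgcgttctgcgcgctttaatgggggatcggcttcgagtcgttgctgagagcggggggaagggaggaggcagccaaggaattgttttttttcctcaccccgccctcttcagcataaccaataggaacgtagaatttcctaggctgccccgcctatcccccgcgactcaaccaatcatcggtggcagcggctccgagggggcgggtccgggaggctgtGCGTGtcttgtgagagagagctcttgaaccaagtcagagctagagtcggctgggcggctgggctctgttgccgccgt
Ddit4 (chr10:59951721-59952020, minus strand): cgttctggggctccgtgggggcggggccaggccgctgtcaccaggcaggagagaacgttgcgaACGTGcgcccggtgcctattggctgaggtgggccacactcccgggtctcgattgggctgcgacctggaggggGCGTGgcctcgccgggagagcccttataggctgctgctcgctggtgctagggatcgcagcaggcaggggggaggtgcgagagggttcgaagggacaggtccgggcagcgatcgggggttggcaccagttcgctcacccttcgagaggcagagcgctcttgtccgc
Bnip3 (chr7:138909457-138909756, minus strand): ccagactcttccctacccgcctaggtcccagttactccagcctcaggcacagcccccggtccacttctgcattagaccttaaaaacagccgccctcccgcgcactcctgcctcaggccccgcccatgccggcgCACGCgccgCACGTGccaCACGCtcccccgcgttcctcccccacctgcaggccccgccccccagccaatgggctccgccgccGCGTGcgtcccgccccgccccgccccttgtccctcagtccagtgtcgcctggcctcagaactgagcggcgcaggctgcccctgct
P4ha2 (chr11:54100674-54100973, plus strand): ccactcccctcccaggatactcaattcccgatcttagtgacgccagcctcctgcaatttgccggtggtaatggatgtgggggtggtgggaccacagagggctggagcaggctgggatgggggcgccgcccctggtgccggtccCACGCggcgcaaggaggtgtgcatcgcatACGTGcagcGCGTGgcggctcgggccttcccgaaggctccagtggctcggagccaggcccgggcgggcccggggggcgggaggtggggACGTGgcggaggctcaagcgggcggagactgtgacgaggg
Eno2 (chr6:124769624-124769923, minus strand): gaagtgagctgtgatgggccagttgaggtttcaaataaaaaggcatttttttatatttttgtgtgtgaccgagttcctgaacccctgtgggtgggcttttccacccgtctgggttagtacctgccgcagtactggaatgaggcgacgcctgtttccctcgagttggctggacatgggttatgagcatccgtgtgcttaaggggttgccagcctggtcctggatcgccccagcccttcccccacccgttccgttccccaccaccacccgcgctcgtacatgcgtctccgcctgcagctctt

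Such a match was found in at least 1 promoter of 32 of the 36 genes that the promoter table holds (88.9%), against 46.7% of all 27025 genes in the table and 61.5% of the 13367 genes in it that were tested on the arrays. Where a gene has several starts the table holds a promoter for each, so a gene with more starts has more windows in which to match. Of all 32851 promoters of this length 43.8% held a match, and the like share by promoter was not worked out for the 36 genes. With ACGTG alone the share was 23 of 36 genes (63.9%), against 21.8% of all genes and 26.7% of the tested ones. Matches were found in genes of either direction, being present in 4 of 4 genes called higher, 17 of 20 called lower and 11 of 12 not called. No match lay in the windows of Gpi1, Tpi1, Eno2 and Vhl, which says only that these letters are absent from them. The Bnip3 window held 5 matches and that of P4ha2 held 4, though both genes were lower in glioma, whereas the Kdm3a window shown held 1, its other windows held none, and the gene was higher. Slc2a3, Bnip3l, Epas1 and Ndrg1 were not in the table.

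Glioma was compared with normal brain to see how the pathway differs between the tumours and the brain. Levels are log2 signal relative to the array's 75th percentile, and a change is the mean of the gliomas minus that of the normal brain samples, ± its standard error in a limma fit over all 16884 genes tested. A gene is called where the Benjamini-Hochberg adjusted p is under 0.05. Of the 40 genes, 4 were called higher in glioma and 23 lower, while 13 were not called. The background was large, as 23.7% of all genes tested were called higher and 27.8% lower (51.4% either way). The values of the groups did not overlap in 6 genes that were higher and 27 that were lower, where all genes gave 35.2% and 38.8% (74.1% either way). The median change was -0.94 over the 40 genes, with quartiles of -1.47 and -0.13, against -0.05 over all genes tested, with quartiles of -0.83 and 0.67. In the deposited value table, to which no scaling between arrays was applied, the median over all genes was 0.31, with 5599 genes higher and 3182 lower against 3994 and 4690 here, and 6 of the 40 genes were called higher and 20 lower.

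**Figure D1:**
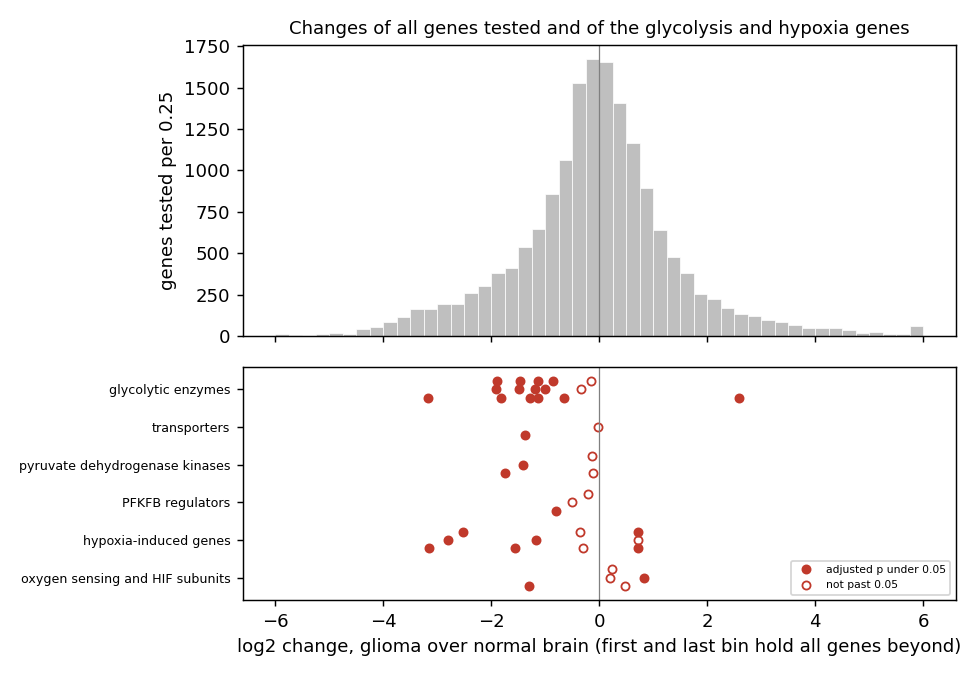
Upper panel, number of genes tested per bin of 0.25 in log2 change of glioma over normal brain, with the 61 genes beyond 6 in either direction placed in the outermost bins. Lower panel, the 40 genes by role on the same axis, each a point (filled where the adjusted p is under 0.05), spread vertically for legibility. Points lie mostly left of 0, with a median of -0.94 against -0.05 for all genes, and Hk2 stands alone at 2.58 among the enzymes.

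In bulk tissue, fewer cells of a type and less RNA per cell cannot be told apart. The summed signal of the 10 neuronal markers, in multiples of the array's 75th percentile, was 56.2 to 83.0 on the glioma arrays and 516 to 520 on the normal brain arrays. Eno2 is itself 1 of these 10 markers, with the highest level of them in normal brain, so its own signal is part of the sum. Eno2 and Slc2a3 are chiefly neuronal in brain, and the part of the neuronal fall in the changes below was not tested. The summed signal of the 6 endothelial markers was 7.07 to 7.95 in gliomas and 19.0 to 22.2 in normal brain, and that of the 4 red blood cell genes was 4.49 to 6.21 in gliomas and 71.9 to 82.6 in normal brain. For the 6 dividing-cell markers it was 16.4 to 27.5 in gliomas and 0.413 to 0.473 in normal brain.

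Of the 16 glycolytic enzymes, 13 were lower in glioma and only Hk2 was higher, where 27.8% of all genes tested were called lower and 23.7% higher. The median change of the 16 enzymes was -1.17, against -0.05 over all genes tested. Hk2 encodes the inducible hexokinase that performs the first step, the phosphorylation of glucose, in muscle and in many tumours. Its levels were -0.86, -0.73 and -1.25 in gliomas 1 to 3, against -3.63 and -3.44 in normal brain samples 1 and 2. Every glioma was well above both normal brain samples. The change was 2.58 ± 0.21, or 6.0-fold (limma adjusted p = 0.000748), and it passed under every alternative setting tried. Hk1, the housekeeping hexokinase that brain chiefly relies on, moved the other way. Its levels were 4.37, 4.02 and 4.56 in gliomas, against 5.45 in both normal brain samples, a change of -1.13 ± 0.20 (limma adjusted p = 0.00782). Within each array, Hk2 changed by 3.72 ± 0.35 more than Hk1, a 13.2-fold shift of their ratio (adjusted p = 0.000371), and 69.0% of all genes also differed in change from Hk1.

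At the steps that follow hexokinase, the isomerase and phosphofructokinase genes were lower in glioma. Gpi1, which interconverts the hexose phosphates, had levels of 5.96, 6.18 and 6.24 in gliomas, against 7.15 and 7.13 in normal brain, and fell by 1.01 ± 0.15 (limma adjusted p = 0.00445). The 3 subunits of phosphofructokinase, which commits sugar to glycolysis, all fell. Pfkm, the muscle type subunit, had 4.32, 4.10 and 4.42 in gliomas and 5.62 and 5.53 in normal brain (change -1.29 ± 0.16, adjusted p = 0.0024). Pfkl, the liver type subunit, had 1.11, 0.73 and 0.74 in gliomas and 2.10 and 1.91 in normal brain (change -1.14 ± 0.18, adjusted p = 0.00573). Pfkp, the platelet type subunit, showed the largest fall of the 3, with levels of 1.26, 0.97 and 1.25 in gliomas and 2.97 and 2.99 in normal brain (change -1.82 ± 0.16, adjusted p = 0.000873), and its other probe changed by -2.53. Pfkp fell further than Pfkm by 0.53 ± 0.17 (adjusted p = 0.0291) and Pfkl fell less than Pfkp by 0.68 ± 0.19 (adjusted p = 0.0191), where 77.4% and 84.9% of all genes differed in change from Pfkm and Pfkp. Pfkl and Pfkm were not shown to differ, their difference of 0.15 having a 95% interval of -0.37 to 0.67.

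Aldoa, the aldolase that cleaves the sugar into triose phosphates, had levels of 7.04, 6.64 and 6.70 in gliomas, against 8.72 and 8.71 in normal brain, and was 3.79-fold lower in glioma (change -1.92 ± 0.18, limma adjusted p = 0.00103). Tpi1, the triose phosphate isomerase, had 4.78, 4.45 and 4.08 in gliomas, against 6.40 and 6.26 in normal brain, and was 3.71-fold lower (change -1.89 ± 0.24, adjusted p = 0.00267). These were the largest falls of the preparatory steps. Gapdh, the dehydrogenase that is often used as a loading control, had 7.57, 7.40 and 7.24 in gliomas, against 8.63 and 8.56 in normal brain (change -1.19 ± 0.16, adjusted p = 0.00298). Its 7 probes changed by -1.56 to -1.19, all below 0.

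Among the later steps, the kinase Pgk1 had levels of 5.32, 5.15 and 5.18 in gliomas, against 6.10 and 6.06 in normal brain (change -0.86 ± 0.14, limma adjusted p = 0.00519). The mutase Pgam1 had 5.33, 5.23 and 5.24 in gliomas, against 6.75 and 6.74 in normal brain (change -1.48 ± 0.13, adjusted p = 0.000903). Pkm, the pyruvate kinase whose splice forms differ between adult and proliferating tissue, had 5.23, 4.68 and 4.59 in gliomas, against 6.18 and 6.44 in normal brain (change -1.47 ± 0.24, adjusted p = 0.0062). A gene-level value cannot tell those splice forms apart. All of the gliomas lay below both normal brain samples in these 3 genes. Pgk1 lies on the X chromosome, and female glioma 3 was not set apart from male gliomas 1 and 2 in it.

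Enolase showed a contrast of isoenzymes. Eno2, the neuronal enolase and itself 1 of the 10 neuronal markers, had levels of 4.06, 3.24 and 3.51 in gliomas, against 6.81 and 6.77 in normal brain. It was 9.09-fold lower in glioma (change -3.18 ± 0.27, limma adjusted p = 0.000858), which with Ndrg1 (-3.15) was the largest fall among the 40 genes, beside a median of -3.27 for the neuronal markers. Eno1, the ubiquitous enolase, had 6.58, 6.27 and 6.36 in gliomas, against 6.71 and 6.77 in normal brain, and its change of -0.34 (95% interval -0.74 to 0.06) was not called. With quantile normalization it was called at -0.50 (adjusted p = 0.0388), and in the unscaled table it was 0.02. Eno1 changed by 2.85 ± 0.40 more than Eno2 (adjusted p = 4.16e-06), but 92.5% of all genes differed in change from Eno2.

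The lactate dehydrogenase subunits moved less. Ldha, the subunit associated with lactate production and a classical HIF target, had levels of 6.20, 6.23 and 6.95 in gliomas, against 6.61 and 6.6 in normal brain. Gliomas 1 and 2 lay below normal brain and glioma 3 above it, so the groups overlapped (change -0.15 ± 0.27, adjusted p = 0.67). Without glioma 3 the change was -0.39 and was called (adjusted p = 0.0437), and in the unscaled table with all arrays it was 0.22. Ldhb, the subunit that favours lactate use, had 6.49, 6.06 and 6.10 in gliomas, against 6.87 and 6.88 in normal brain (change -0.66 ± 0.18, limma adjusted p = 0.0339). That call was lost when any array other than glioma 1 was left out (adjusted p = 0.0635 to 0.172) and in the unscaled table (adjusted p = 0.244). Ldha and Ldhb were not shown to differ in change, with a difference of 0.51 (95% interval -0.36 to 1.38), while 55.7% of all genes differed from Ldhb.

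Calls of several enzymes rested on having both normal brain samples. With normal brain 1 left out, Hk1 (adjusted p = 0.0614), Gpi1 (0.0522), Pfkl (0.0591), Pgk1 (0.0653) and Ldhb (0.169) missed the threshold, and with normal brain 2 left out Hk1 (0.0609), Pgk1 (0.0599), Pkm (0.0532) and Ldhb (0.172) did. Such fits take the spread of the lone normal brain array from the gliomas. Hk2, Pfkm, Pfkp, Aldoa, Tpi1, Gapdh, Pgam1 and Eno2 kept their calls under every alternative tried.

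**Figure D2:**
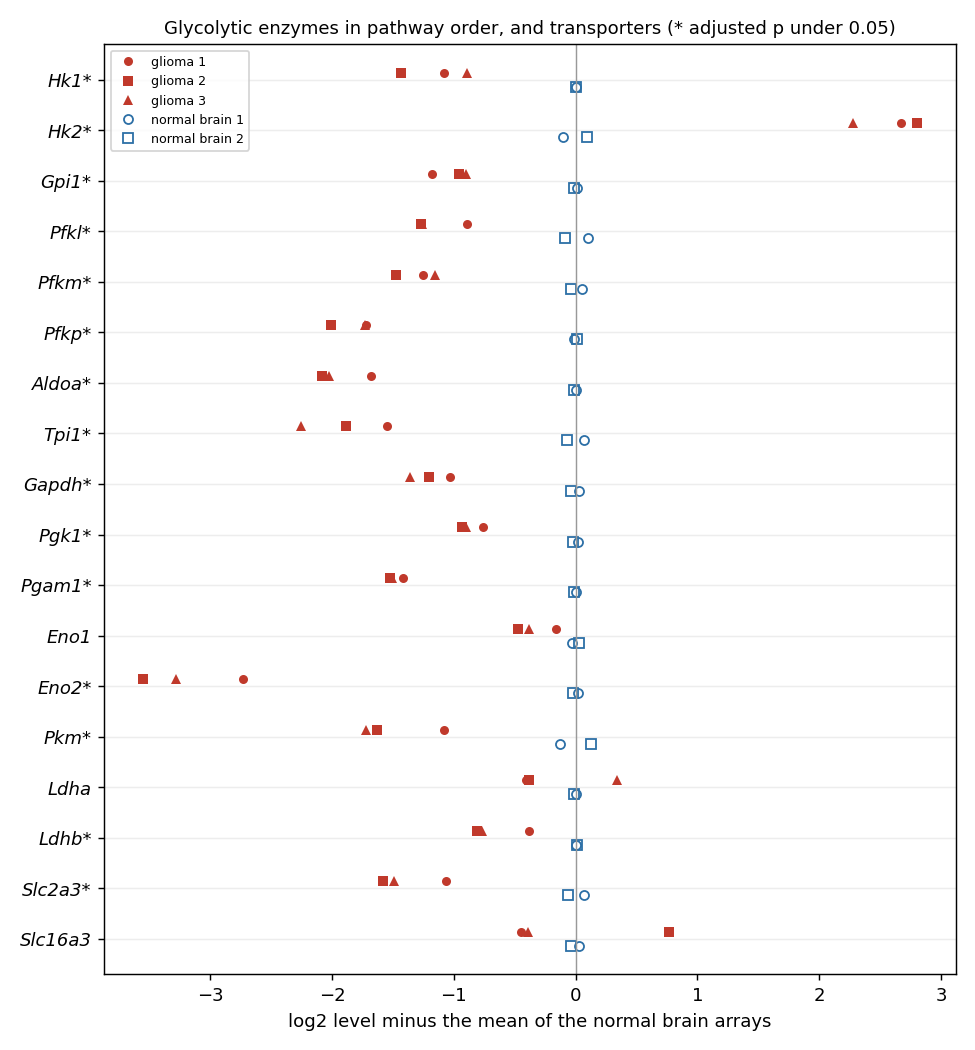
Log2 level of each array minus the mean of the normal brain arrays, for the 16 glycolytic enzymes in pathway order and the 2 transporters. Red filled symbols are gliomas 1 to 3 and blue open symbols normal brain samples 1 and 2, and an asterisk marks an adjusted p under 0.05. Gliomas lie left of normal brain except for Hk2, for Ldha in glioma 3 and for Slc16a3 in glioma 2.

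Of the transporters, Slc2a3, the neuronal glucose transporter GLUT3, had levels of 2.76, 2.24 and 2.33 in gliomas, against 3.89 and 3.76 in normal brain, and fell by 1.38 ± 0.21 (limma adjusted p = 0.0044). Slc16a3, the lactate exporter MCT4, had -0.98, 0.24 and -0.92 in gliomas, against -0.50 and -0.57 in normal brain. Only glioma 2 was above normal brain, and the change of -0.02 (95% interval -1.08 to 1.04) had no settled sign. Glioma 2 also had the highest summed signal of the microglia and macrophage markers. It was 98.2, 175 and 64.6 in gliomas 1 to 3 and 51.3 and 52.8 in normal brain, and the part of these cells was not tested. Among the gliomas, glioma 2 was likewise highest in the sums of the mature oligodendrocyte, astrocyte and dividing-cell markers.

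The 4 pyruvate dehydrogenase kinases switch off entry of pyruvate into the mitochondrial cycle. Where 27.8% of all genes tested were called lower and 51.4% either way, 2 of these kinases fell and 2 were not called. Pdk2, the most widespread of them, had levels of 1.67, 1.15 and 1.12 in gliomas, against 2.75 and 2.70 in normal brain (change -1.41 ± 0.22, limma adjusted p = 0.00495). Pdk4, which is induced by fasting and fatty acids, had -1.93, -0.96 and -1.05 in gliomas, against 0.34 and 0.51 in normal brain (change -1.74 ± 0.33, adjusted p = 0.01). Its call was lost without normal brain 1 (adjusted p = 0.0518) or normal brain 2 (0.0654). Pdk1, the kinase best known as a HIF target, had -0.93, -0.48 and -1.02 in gliomas, against -0.50 and -0.86 in normal brain. Its groups overlapped, and the change was -0.13 (95% interval -0.72 to 0.46), or 0.23 in the unscaled table and 0.05 without normal brain 1. Pdk3, an X-linked kinase, had 0.75, 0.85 and 0.95 in gliomas, with female glioma 3 the highest, against 0.95 and 0.98 in normal brain. Its change was -0.11 (95% interval -0.47 to 0.24), or 0.24 in the unscaled table.

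Within arrays, Pdk1 changed by 1.28 ± 0.34 more than Pdk2 (limma adjusted p = 0.0123) and by 1.61 ± 0.57 more than Pdk4 (adjusted p = 0.00827). Pdk3 likewise changed by 1.30 ± 0.31 more than Pdk2 (adjusted p = 0.00756) and by 1.62 ± 0.57 more than Pdk4 (adjusted p = 0.00775). The ratio of kinases thus stood higher for Pdk1 and Pdk3 in each glioma than in either normal brain sample. Of all genes, 76.4% differed in change from Pdk2 and 73.0% from Pdk4, so a difference from these genes was common. The difference of Pdk1 and Pdk3 was -0.01 (95% interval -0.65 to 0.62), where 49.5% of all genes differed from Pdk3, and that of Pdk4 and Pdk2 was -0.32 (95% interval -1.46 to 0.81). Without normal brain 1 the contrasts of Pdk1 with Pdk4 (adjusted p = 0.0547), Pdk3 with Pdk2 (0.059) and Pdk3 with Pdk4 (0.0796) missed the threshold, and without normal brain 2 those of Pdk1 with Pdk2 (0.0894), Pdk1 with Pdk4 (0.176) and Pdk3 with Pdk4 (0.122) did.

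The PFKFB enzymes make and remove the fructose bisphosphate that activates phosphofructokinase. Pfkfb4, a HIF target in several tumours, had levels of 0.20, 0.50 and -0.03 in gliomas, against 1.05 and 0.99 in normal brain, and fell by 0.80 ± 0.20 (limma adjusted p = 0.0227). It kept no call without glioma 1 (adjusted p = 0.0527), normal brain 1 (0.138) or normal brain 2 (0.117), or in the unscaled table (0.224). Pfkfb3, the member with the strongest kinase activity, had 1.55, 1.80 and 2.15 in gliomas, against 2.24 and 2.44 in normal brain. All gliomas lay below normal brain, but the change of -0.51 (95% interval -1.07 to 0.05) was not called. It was called at -0.66 without glioma 3 (adjusted p = 0.0319) and with the replicate number fitted as a block (adjusted p = 0.0394). Pfkfb2, the form best studied in heart, had -0.42, -0.31 and 0.31 in gliomas, against 0.07 in both normal brain samples. Glioma 3 was above normal brain and the others below, with a change of -0.21 (95% interval -0.87 to 0.45), or -0.44 without glioma 3 (adjusted p = 0.0397) and 0.15 in the unscaled table. No pair among these 3 was shown to differ in change, the differences being -0.30 for Pfkfb3 and Pfkfb2 (95% interval -1.02 to 0.43), -0.59 for Pfkfb4 and Pfkfb2 (-1.55 to 0.37) and 0.29 for Pfkfb3 and Pfkfb4 (-0.49 to 1.08). Of all genes, 33.0% differed from Pfkfb2 and 58.3% from Pfkfb4.

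The oxygen sensing genes gave a contrast of the HIF alpha subunits. Hif1a, the subunit present in nearly all cells, had levels of 1.02, 0.76 and 0.88 in gliomas, against 0.03 and 0.09 in normal brain, and was 1.78-fold higher in glioma (change 0.83 ± 0.15, limma adjusted p = 0.00782). Epas1, which encodes HIF-2 alpha and is abundant in endothelial cells and astrocytes, had 3.07, 3.60 and 4.42 in gliomas, against 4.99 and 5.0 in normal brain, and was 2.46-fold lower (change -1.30 ± 0.41, adjusted p = 0.0467). Its 3 probes changed by -1.30 to -0.42. Markers of the cell types known for Epas1 were also lower in part, with all 6 endothelial markers and 4 of 8 astrocyte markers called lower (2 of 8 astrocyte markers without normal brain 1), and their part was not tested. Hif1a changed by 2.13 ± 0.65 more than Epas1 (adjusted p = 0.00482), and 45.9% of all genes differed from Epas1.

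These calls were not firm. Without normal brain 1 or normal brain 2, Hif1a stood at adjusted p = 0.0844 and 0.0697, Epas1 at 0.163 both times, and their contrast at 0.137 and 0.126. Epas1 was also not called without glioma 1 (adjusted p = 0.0689), without glioma 2 (0.117), with quantile normalization (0.054), without the filter on dim probes (0.0525) or in the unscaled table (0.0931). The sign of each stayed as given in all of these.

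The HIF-degrading genes were not called. Egln1, the main prolyl hydroxylase that targets HIF, had levels of -1.01, -1.34 and -0.97 in gliomas, against -1.34 and -1.27 in normal brain (change 0.20, 95% interval -0.24 to 0.63). Egln3, a prolyl hydroxylase that HIF itself induces, had -1.53, -1.83 and -1.98 in gliomas, against -2.31 and -2.18 in normal brain. All gliomas were thus higher with this probe (change 0.47, 95% interval -0.01 to 0.94). With the other probe of Egln3 the groups overlapped, and the change was 0.17. Vhl, the ubiquitin ligase subunit that recognises hydroxylated HIF, had 2.82, 2.53 and 2.47 in gliomas, against 2.34 and 2.42 in normal brain (change 0.23, 95% interval -0.20 to 0.65). Egln1 (0.55, adjusted p = 0.0303) and Egln3 (0.82, adjusted p = 0.0266) were called in the unscaled table, and Egln3 also without glioma 3 (0.57, adjusted p = 0.0494). Egln3 and Egln1 were not shown to differ in change, with a difference of 0.27 (95% interval -0.31 to 0.85), and 44.7% of all genes differed from Egln1.

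Of the 10 genes known to be induced by hypoxia, 2 were higher in glioma, 5 were lower and 3 were not called, where 23.7% of all genes tested were called higher and 27.8% lower. The share that was higher is near that background. The median change of the 10 was -0.76, against -0.05 over all genes tested. The higher ones were small changes. Kdm3a, a histone demethylase, had levels of 2.42, 2.37 and 2.41 in gliomas, against 1.73 and 1.65 in normal brain (change 0.71 ± 0.13, limma adjusted p = 0.0083). Ddit4, the stress-induced inhibitor of mTOR signalling also called REDD1, had 5.37, 4.95 and 4.93 in gliomas, against 4.47 and 4.28 in normal brain (change 0.71 ± 0.20, adjusted p = 0.0323). Both stood 1.63-fold higher with no overlap of the groups. Kdm3a lost its call without normal brain 1 (adjusted p = 0.0808) or 2 (0.102), and Ddit4 without glioma 2 (0.053), normal brain 1 (0.121) or 2 (0.195).

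The falls were larger. Ndrg1, a stress-responsive gene that is also needed in myelinating cells, had levels of 1.46, 2.10 and 0.39 in gliomas, against 4.48 and 4.46 in normal brain, and was 8.91-fold lower (change -3.15 ± 0.51, limma adjusted p = 0.00577). Its gliomas spread over 1.72, the widest range of the 40 genes. The summed signal of the 7 mature oligodendrocyte markers followed the same order, at 93.0, 301 and 34.9 in gliomas 1 to 3 and 288 and 312 in normal brain. In glioma 2 most of that sum was Mag, at a level of 7.74, and the part of these cells in Ndrg1 was not tested. The summed signals of the microglia and macrophage markers and of the astrocyte markers also had the order of Ndrg1 in the gliomas. Those of the other cell types did not.

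Bnip3, a receptor that marks mitochondria for mitophagy, had levels of 2.81, 2.58 and 2.63 in gliomas, against 5.16 and 5.22 in normal brain, and was 5.73-fold lower (change -2.52 ± 0.14, limma adjusted p = 0.000444). Its 3 probes changed by -3.06 to -2.43. Its relative Bnip3l, also called Nix, which clears mitochondria from maturing red blood cells, had 4.01, 3.80 and 3.77 in gliomas, against 4.19 and 4.25 in normal brain. All gliomas lay below normal brain, though the change of -0.35 (95% interval -0.73 to 0.02) was not called. Bnip3 fell further than Bnip3l by 2.16 ± 0.14 (adjusted p = 0.000462), where 53.2% of all genes differed from Bnip3l, and this contrast passed under every alternative tried.

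The prolyl hydroxylases of collagen, which let collagen chains fold into a stable triple helix, were both lower. P4ha2 had levels of -2.04, -1.92 and -1.62 in gliomas, against 1.12 and 0.79 in normal brain, and was 7.03-fold lower (change -2.81 ± 0.20, limma adjusted p = 0.0006). P4ha1 had -0.91, -0.67 and -0.98 in gliomas, against 0.71 and 0.72 in normal brain, and was 2.97-fold lower (change -1.57 ± 0.16, adjusted p = 0.00126). P4ha2 fell further than P4ha1 by 1.25 ± 0.27 (adjusted p = 0.00437), where 82.4% of all genes differed from P4ha1. Ankrd37, a small ankyrin repeat protein gene and HIF target, had -0.74, -0.48 and -0.76 in gliomas, against 0.47 and 0.55 in normal brain (change -1.17 ± 0.16, adjusted p = 0.00305). All 5 falls in this group kept their calls under every alternative tried.

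Car9, the carbonic anhydrase widely used as a marker of tumour hypoxia, had levels of -1.10, -1.35 and -2.21 in gliomas, against -2.58 and -1.95 in normal brain. Gliomas 1 and 2 were above both normal brain samples and glioma 3 lay between them. The change of 0.71 (95% interval -0.31 to 1.73) was not called with all arrays but was without glioma 3, at 1.04 (adjusted p = 0.0381). Adm, the vasodilator adrenomedullin, had -2.18, -1.77 and -0.88 in gliomas, against -1.28 and -1.31 in normal brain, with glioma 3 alone above them. Its change was -0.31 (95% interval -1.33 to 0.71), or -0.68 without glioma 3 (adjusted p = 0.0442) and 0.05 in the unscaled table.

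**Figure D3:**
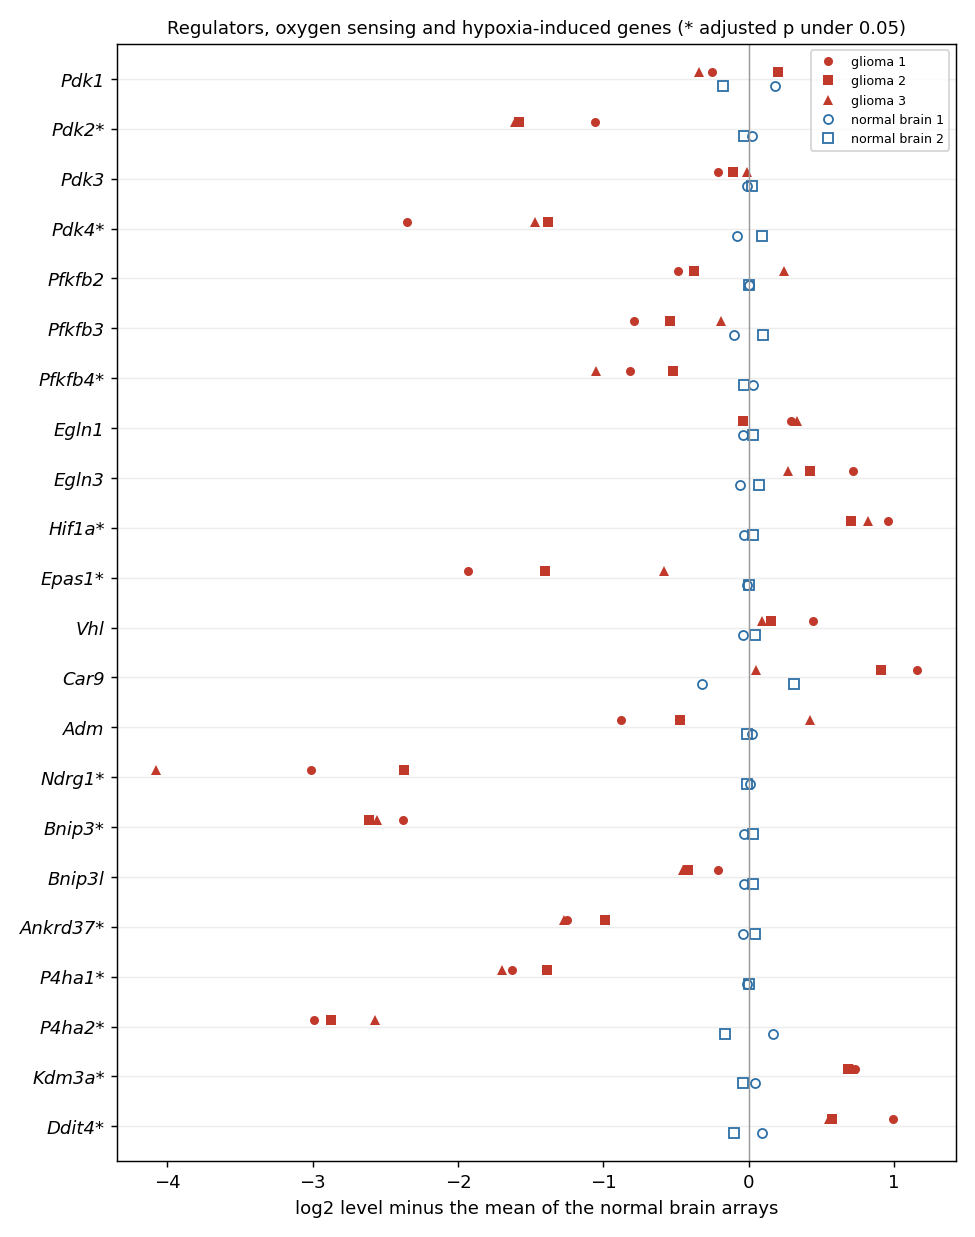
Log2 level of each array minus the mean of the normal brain arrays, for the pyruvate dehydrogenase kinases, PFKFB enzymes, oxygen sensing genes and hypoxia-induced genes. Red filled symbols are gliomas 1 to 3 and blue open symbols normal brain samples 1 and 2, and an asterisk marks an adjusted p under 0.05. Of the called genes, Hif1a, Kdm3a and Ddit4 lie right of normal brain, while Ndrg1, P4ha2 and Bnip3 lie farthest to the left, at -3.15, -2.81 and -2.52 on average.

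Across the pathway, 19 pairs of isoenzymes or related genes were compared within arrays, where scaling between arrays cancels out. Of these pairs 11 differed in change, but 33.0% to 92.5% of all genes differed from the second gene of a pair. The p-values of these contrasts understate the error, because the spread of the second gene, with 3 residual degrees of freedom, is shared by every gene of the fit. All 11 also had a 95% interval without 0 when each pair was given its own variance, and in all 11 the ratios of the gliomas did not overlap those of normal brain. Levels of single genes did not overlap in 74.1% of all genes tested, and this share was not worked out for ratios. The shift was widest in hexokinase (13.2-fold), enolase (7.19-fold), Bnip3 and Bnip3l (4.48-fold), and the HIF alpha subunits (4.37-fold). The number that differed fell to 5 without normal brain 1 and to 5 without normal brain 2. Besides those given above, Pfkp with Pfkm (adjusted p = 0.148 and 0.215) and Pfkl with Pfkp (0.076 and 0.161) then missed the threshold.

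**Figure D4:**
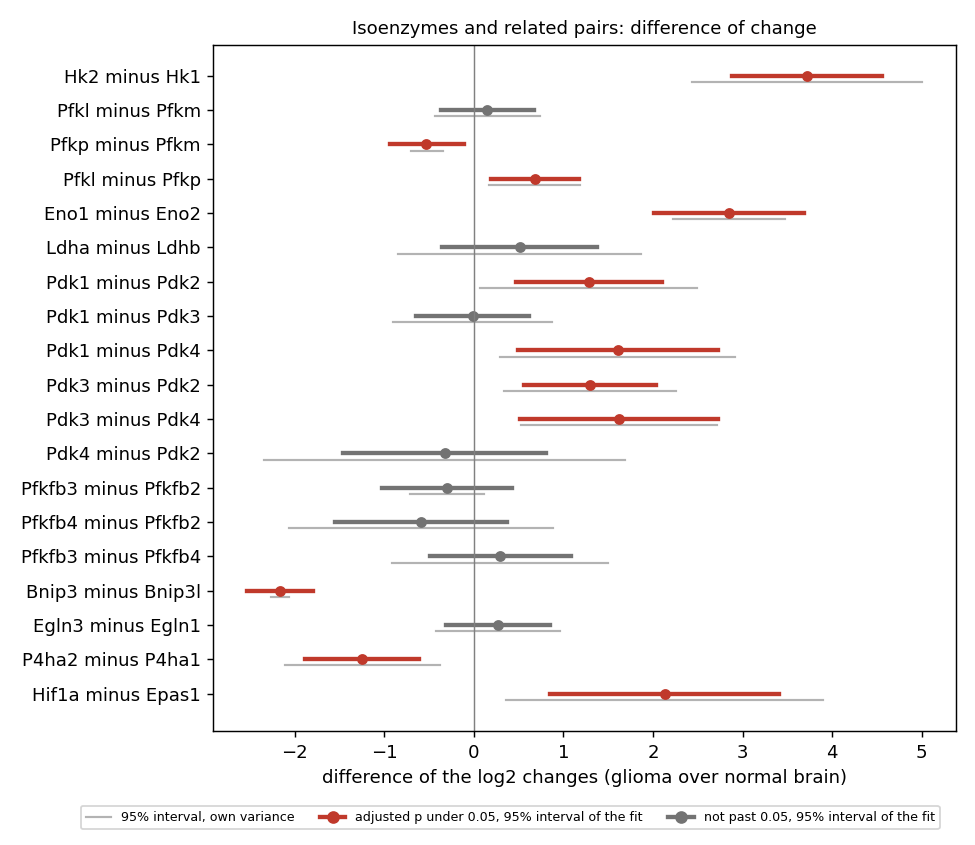
Difference of the log2 change (glioma over normal brain) between the first and the second gene of 19 pairs, with 95% intervals. Thick lines are intervals of the limma fit, red where the adjusted p is under 0.05, and thin grey lines are intervals from the pair's own variance. Hk2 against Hk1 (3.72) and Eno1 against Eno2 (2.85) lie farthest from 0, and 8 pairs have intervals that reach across it.

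The gliomas differed from each other more than the normal brain samples did, with a median SD over the 40 genes of 0.23 in gliomas and 0.04 in normal brain, against 0.26 and 0.07 over all genes tested. The SD of the gliomas was the larger in 38 of the 40 genes and in 86.0% of all genes. Among the 16 enzymes, glioma 1 had the highest level of the gliomas in 11 and glioma 2 the lowest in 10, where over all genes these shares were 37.3% and 31.7%. The enzymes with the widest glioma ranges were Eno2 (0.82), Ldha (0.75) and Tpi1 (0.71). Those with the narrowest were Pgam1 (0.10) and Pgk1 (0.16), and Kdm3a had the narrowest range of the 40 genes (0.05).

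A further 67 genes of the same pathways were looked at, of which 66 were tested and Ldhc was not detected. In glucose metabolism 7 of 31 were higher in glioma and 11 lower, with a median change of -0.18, and in the HIF pathway 8 of 35 were higher and 10 lower, with a median of 0.06. The shares that were higher were near the 23.7% of all genes, and the share that was lower in the HIF pathway was near their 27.8%. The counts of both lists changed by more than 1.5 times in the unscaled table or without a normal brain sample. Among the other hexokinases, Hkdc1 fell by 1.44 ± 0.23 (limma adjusted p = 0.00531). Hk3, a hexokinase of white blood cells, had levels of -2.22, -1.09 and -2.54 in gliomas, against -3.35 and -3.15 in normal brain. The highest level was in glioma 2, which also led the gliomas in the summed microglia and macrophage, mature oligodendrocyte, astrocyte and dividing-cell markers. Hk3 was not called (change 1.30 ± 0.46, adjusted p = 0.0644). It was called at 0.87 without glioma 2 (adjusted p = 0.0299), at 1.6 without glioma 3 (0.0431) and at 1.66 in the unscaled table (0.0477).

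Among isoenzymes of other steps, Pgam2 of muscle fell by 2.67 ± 0.48 (limma adjusted p = 0.00813, or 0.0514 without normal brain 2). Aldoc, the aldolase of astrocytes and Purkinje cells, had levels of 7.94, 7.34 and 7.0 in gliomas, against 8.01 and 7.93 in normal brain, and was called only without glioma 1 (change -0.54 ± 0.30, adjusted p = 0.189, or -0.79 and 0.0274 without it). Not called was muscle Eno3 (change -0.37 ± 0.27, adjusted p = 0.3). Pfkfb1, the liver form of its family, was 2.17-fold higher (change 1.12 ± 0.13, adjusted p = 0.00193). The pyruvate kinase Pklr of liver and red blood cells was not well above background in normal brain and was at least 2.46-fold higher in glioma (adjusted p = 0.00415), a call lost with normexp background correction, which shrinks the change of dim probes (0.20, adjusted p = 0.274). The glucose transporter Slc2a1, of the blood-brain barrier, had 2.62, 2.58 and 3.47 in gliomas, against 3.49 and 3.43 in normal brain, with glioma 3 at the level of normal brain (change -0.57 ± 0.31, adjusted p = 0.185). Without glioma 3 it was called (-0.86, adjusted p = 0.00692). Of the monocarboxylate transporters, Slc16a1 fell by 0.57 ± 0.14 (adjusted p = 0.0245), a call lost without normal brain 1 (0.219) or 2 (0.1), in the unscaled table (0.391) and with a trended, robust variance (0.0655), and the neuronal Slc16a7 changed by -0.02 ± 0.25 (adjusted p = 0.944).

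The largest called changes of the glucose metabolism list were a rise and a fall. Fbp1, the fructose bisphosphatase that opposes phosphofructokinase in gluconeogenesis, had levels of -0.38, -0.19 and -0.66 in gliomas, against -3.54 and -3.0 in normal brain, and was 7.26-fold higher (change 2.86 ± 0.24, limma adjusted p = 0.000844). Pdp1, the phosphatase that reactivates pyruvate dehydrogenase against the kinases above, had 1.43, 1.11 and 1.34 in gliomas, against 4.61 and 4.47 in normal brain, and was 9.50-fold lower (change -3.25 ± 0.16, adjusted p = 0.000397). Pdk2 and Pdk4, which act on the same complex in the opposite sense, were lower as well.

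In the HIF pathway list, the partner subunit Arnt2 fell by 1.16 ± 0.13 (limma adjusted p = 0.00193). The other partner subunit Arnt was higher in every glioma than in normal brain but was not called (change 0.62 ± 0.27, adjusted p = 0.107). Hif3a (change 0.65 ± 0.92, adjusted p = 0.586) and the hydroxylase Egln2 (change -0.27 ± 0.17, adjusted p = 0.226) were not called either. The largest falls were those of the carbonic anhydrase Car12 (19.3-fold lower, change -4.27 ± 0.37, adjusted p = 0.000914), the angiogenic factor Vegfa (4.41-fold lower, change -2.14 ± 0.53, adjusted p = 0.0233) and the transcriptional repressor Bhlhe40 (4.20-fold lower, change -2.07 ± 0.14, adjusted p = 0.000545). Vegfa had levels of 0.74, -0.10 and 1.13 in gliomas, against 2.07 and 3.38 in normal brain, and the SD of its normal brain samples was 0.93, against a median of 0.07 over all genes. Its call was lost without glioma 1 (adjusted p = 0.0562), glioma 2 (0.054) or normal brain 2 (0.109). Among the largest rises were those of the haem oxygenase Hmox1 (3.42-fold, change 1.78 ± 0.14, adjusted p = 0.000772), the collagen lysyl hydroxylase Plod2 (3.19-fold, change 1.67 ± 0.17, adjusted p = 0.00132) and the lipase inhibitor Angptl4 (2.26-fold, change 1.18 ± 0.28, adjusted p = 0.02). Angptl4 was not called without normal brain 1 (adjusted p = 0.0938) or 2 (0.107). Known HIF targets were thus found on both sides of 0 in these gliomas.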

How the data were processed

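Total RNA of 3 gliomas and 2 normal brain samples was measured on a separate array each. The intensity values of each spot come from the authors' run of Agilent Feature Extraction (version 10.7.3.1 in the submitters' processing notes), and the deposited files also hold 0 or 1 flags for outliers and for signal well above background, per the file headers. The authors' deposited value table holds log2 values, and on every array these were found to be the processed signal on a log2 scale, unscaled.

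Control spots were left out, repeated spots averaged and 23 probes with outlier flags dropped. Levels are log2 processed signals from which the 75th percentile of their array was subtracted. RefSeq accessions named 28013 of 29787 probes that carry one. The probe with the highest mean level stood for its gene, which was tested if at least 2 arrays had it well above background. All 40 genes passed on all 5 arrays. Of the 13 with several detected probes, Slc16a3 alone had probes of opposite sign (-0.02 and 0.01). The tests were two-sided and used lmFit and eBayes of limma 3.58.1 (R 4.3.3) with Benjamini-Hochberg adjustment, and tables and figures were made in Python 3.11.15 (pandas 2.3.3, matplotlib 3.10.9) and the R package data.table (version 1.17.8). An exact permutation test of 3 arrays against 2 has 10 splits and cannot go below p = 0.2, so none is given. For pairs, the log2 ratio of every gene to the second gene was fitted in the same way. The fit was tested on simulated data, where most of the smaller changes were missed. Far fewer genes were changed there than were called here, so that outcome does not measure the sensitivity of this comparison. A gene that was not called may still differ.

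Genes below the background limit on every normal brain array are given by the smallest fold possible, taken from the higher of its own value and the lowest signal well above background on that array. The planned normexp alternative (offset 50) used the median spot signal in place of the mean signal. Repeated probes differed between arrays by far more than spot error (SD of 0.182 in normal brain against 0.0506), so no array was a copy of another. Spot error covers only the spread within an array, so this cannot tell whether 2 arrays measured the same RNA. The genes and the other lists were chosen with earlier results of these data known. All 40 were named, with the 6 largest called rises and falls of the other pathway genes and the isoenzymes of each step, except a few that are not reported here.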

Additional observations from a re-analysis of the deposited data

How the results depend on the processing

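Each value was recomputed with quantile or cyclic loess normalization, the unscaled value table, normexp, the mean of a gene's probes, other filters on dim probes, eBayes with trend and robust, the replicate number as a block, and without each array. None of the 27 called genes changed sign, and 15 kept their call under all of these. Without 1 array, 4628 to 9322 genes, 1 to 6 of the 40 genes higher, 15 to 26 lower and 5 to 11 pairs were called, the lowest without a normal brain sample. The cause of the other changes was not tested. In the unscaled table, where the median of all genes was 0.31 and not -0.05, Eno1 was at 0.02, Ldha 0.22, Slc16a3 0.34, Pdk1 0.23, Pdk3 0.24, Pfkfb2 0.15, Adm 0.05, Bnip3l 0.0024, Slc16a7 0.33 and Egln2 0.09. Slc16a3 was at 0.0022 with normexp and 0.17 with the replicate block, and Pdk1 minus Pdk3 at 0.14 and Hif3a at -0.12 with that block. Without 1 array at a time, Slc16a3 ranged over -0.42 to 0.19, Pdk1 over -0.31 to 0.05, Pdk1 minus Pdk3 over -0.21 to 0.18, Pdk4 minus Pdk2 over -0.58 to 0.16, Slc16a7 over -0.24 to 0.11 and Hif3a over -0.12 to 1.33. Same-numbered samples did not deviate together (correlations of 0.0129 and 0.049), so the block, with 8260 genes, 4 of the 40 higher and 22 lower, and 10 pairs called, rests on a shared number only. No normal brain sample has the number 3, so glioma 3 had no weight in the changes under the block. They equalled those without glioma 3, as with Slc16a3 at 0.17 and Hif3a at -0.12. Under the block Ldhb, Pfkfb4, Slc16a1 and the contrast of Pfkp with Pfkm were not called (limma adjusted p = 0.0808, 0.0551, 0.0737 and 0.0556), and Pfkfb3, Hk3 and Slc2a1 were (0.0394, 0.0253 and 0.0228). Intervals of pairs with their own variance were added after seeing the data, and gave 11 pairs.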
